A study of Mus musculus with 4 samples.

Results

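The forkhead factors are transcription factors that share a winged-helix DNA-binding domain. All protein-coding genes of the deposited table with a symbol from Foxa to Foxs followed by a digit were taken, apart from Foxm1, the gene named by the genotype. This gave 28 genes of 20421, and all 28 carried the Pfam forkhead domain in the table. Total RNA of brain was sequenced from E15 (embryonic day 15) mice of the C57BL/6 strain, either wild type (WT) or FOXM1f/+;Nestin-Cre. Nestin-Cre drives Cre recombinase in neural progenitors. The series title names the human FOXM1 gene, and the labels do not describe how the FOXM1f allele was built. The table holds 1 column of reads for each genotype while 4 samples are listed, 2 for each genotype, and the design text speaks of triplicates. The titles of the WT samples name nestin in 1 case and foxm1 in the other, so the WT column may come from an animal with either allele. The labels do not say how many embryos went into a column. The columns are called the transgenic and the WT library.

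With 1 library for each genotype, no difference below has a replicate check or a test. Values are reads, counts per 1000000 reads (CPM) and the CPM ratio of the transgenic over the WT library with an exact 95% counting interval, which leaves out the spread between animals. The libraries held 17856653 (transgenic) and 17543705 (WT) reads. They also differed in sex-linked transcripts. Xist had 9628 reads in the transgenic and 5 in the WT library, and the 4 Y-linked genes of the sex-linked list had reads in the WT library only. Mouse Foxm1 had 1289 against 1139 reads, a ratio of 1.11 (1.03 to 1.21), and reads of the human gene were not analysed here. Of the 8 genes of dividing cells, all 8 had intervals above 1, with a median log2 ratio of 0.38. The part of sex and of dividing cells in the forkhead ratios was not tested. Of 7 dorsal telencephalon genes, which summed to 1336 against 1228 CPM, 4 had intervals above 1 and none below, with a median log2 ratio of 0.13. Among them Emx2, a homeobox gene of the cortical primordium, had 825 against 618 reads. In whole tissue, fewer cells of a type and less RNA per cell cannot be told apart.

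Forkhead factors bind DNA through a recognition helix that sits in the major groove, and most act as monomers, whereas FoxP proteins pair with each other. In the embryonic forebrain they are known for neuron type (FoxP), growth factor signalling (FoxO) and motile cilia (FoxJ). The stretch that codes for the start of the recognition helix shows how close the paralogs are, and it bears on whether reads of 1 gene could be counted for another. It was found by translating the longest coding sequence of each gene in GENCODE M21 (GRCm38), in 27 of the 28 genes. The 30-base stretches of 7 genes below run 5′ to 3′ on the coding strand, and capitals mark bases that differ from Foxp4.
Foxp4: tggaagaatgccgtgcgccacaacctcagc
Foxo6: tggaagaaCTccAtTcgGcacaacctGTCG
Foxo4: tggaagaaCTccAtCcgTcacaacctGTCc
Foxo3: tggaagaaCTccAtCcgGcacaacctGTCc
Foxk2: tggCagaatTcAAtTcgccacaaTctcTCT
Foxc1: tggCagaaCAGcAtAcgGcacaacctcTCG
Foxf2: tggaagaaCTccgtgcgccacaacctcTCG
All 27 stretches were distinct. From Foxp4, Foxf2 differed at 5 bases, Foxo3 and Foxo4 at 8, Foxo6 and Foxk2 at 9 and Foxc1 at 10. In the 13 genes of the FoxJ, FoxK, FoxO and FoxP groups the stretch crossed an exon junction, and in the other 14 it lay in 1 exon. Of the 28 genes, 24 had no run of 50 bases in common with another forkhead member, on the strand of either transcript or its reverse. Sharing with other genes was larger for some members. Of the 50-base runs of Foxq1, 65.7% also belonged to A530084C06Rik on the opposite strand. For Foxo1, 6.80% were shared, mostly with an antisense model. For Foxp3 and Foxb1, both under 1 CPM, 23.1% and 12.5% were shared. The strand setting of the counting is not given, so the values of these genes are uncertain.

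**Figure D1:**
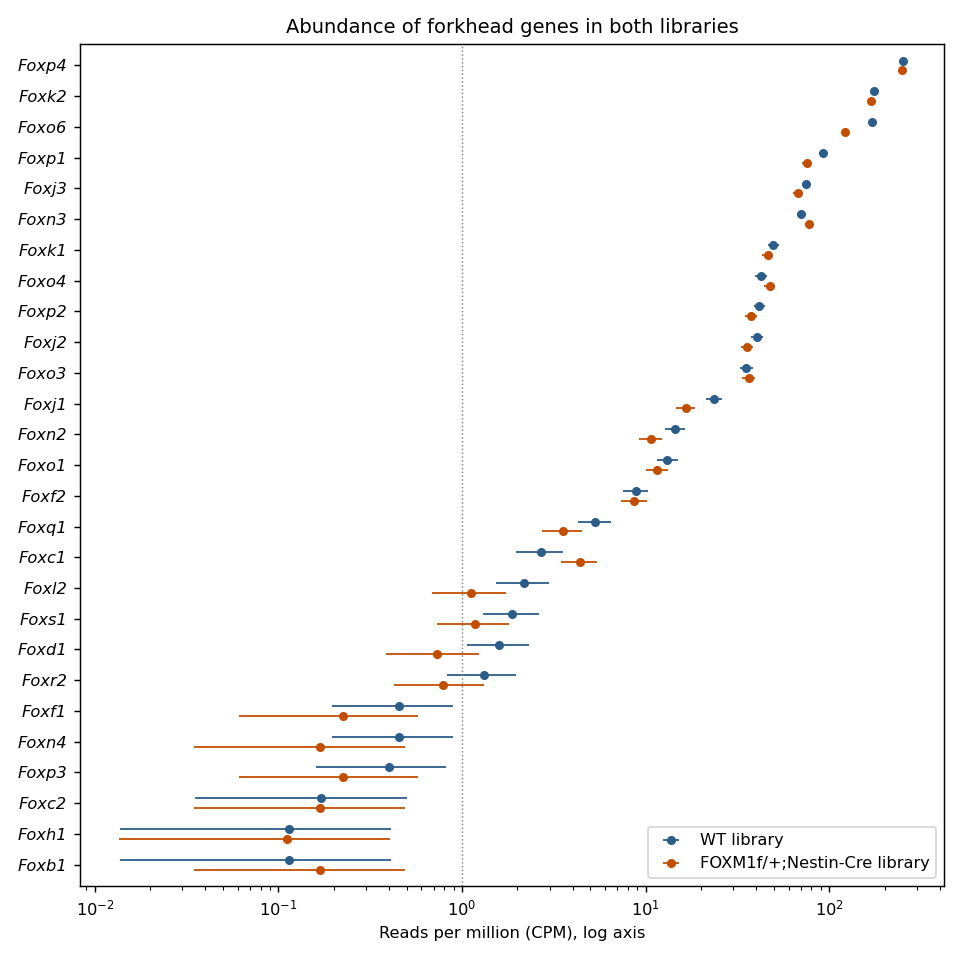
CPM (log axis) of 27 forkhead genes in the WT and the transgenic library, with exact 95% Poisson intervals and a dotted line at 1 CPM. Foxp4 lay at 251 (WT) and 249.8 (transgenic) CPM, and 6 genes lay below 1 CPM in both libraries.

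Forkhead levels differed widely between genes. All 28 members together took 25428 reads (0.142%) of the transgenic and 27810 reads (0.158%) of the WT library. A mean of at least 1 CPM was reached by 22 members. Among the 22, 18 had a ratio below 1, against 51.6% of the 14557 genes that reached this mean in the table. Their median log2 ratio was -0.18, against -0.01 for all genes. The counting interval lay below 1 for 11 of 22 and above 1 for 3, and these shares were 19.2% and 16.5% among all genes. With edgeR's TMM scaling the members' counts were 9 and 3, and of all genes 2489 lay below and 2738 above 1, the reverse order. An interval narrows with depth, and the members were somewhat deeper, with a median of 36.9 CPM against 26.8.

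Among the members, large ratios were seen only at low levels. Foxd1 alone was at least 2-fold lower, against 1.83% of all genes, and no member was at least 2-fold higher, against 0.522%. At 1.5-fold, 5 members were lower (Foxd1, Foxl2, Foxq1, Foxr2 and Foxs1; 5.23% of all genes) and 1 was higher (Foxc1; 2.53% of all genes). These 6 had mean levels of 1.05 to 4.41 CPM, and the shares of all genes are not matched to that level. Among them Foxd1 (0.728 CPM transgenic, 1.60 WT) and Foxr2 (0.784 transgenic, 1.31 WT) reached the mean of 1 CPM by their WT level alone. With at least 1 CPM asked for in both libraries, which removes them, 0 members were at least 2-fold lower. Of the 15 members with a mean of at least 10 CPM, none differed by 1.5-fold, and ratios ran from 0.698 for Foxj1 to 1.11 for Foxo4. Most genes at that level also lay within 1.5-fold. The 5th and 95th percentiles of the log2 ratio over all 10138 of them were -0.33 and 0.29. The ratio was below 1 in 12 of these 15, against 49.5% of all genes at that level. In the authors' deposited table, 4 of the 28 members were marked as significant (Foxc1 up, Foxd1, Foxl2 and Foxq1 down) beside 9.46% of all genes. All 4 were past 1.5-fold. Foxo6, Foxp1, Foxj1 and Foxn2 were within 1.5-fold and not marked, though their deposited adjusted p-values were smaller than those of the 4. The mark thus does not order the members by p-value, and it compares 1 column with 1 column.

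**Figure D2:**
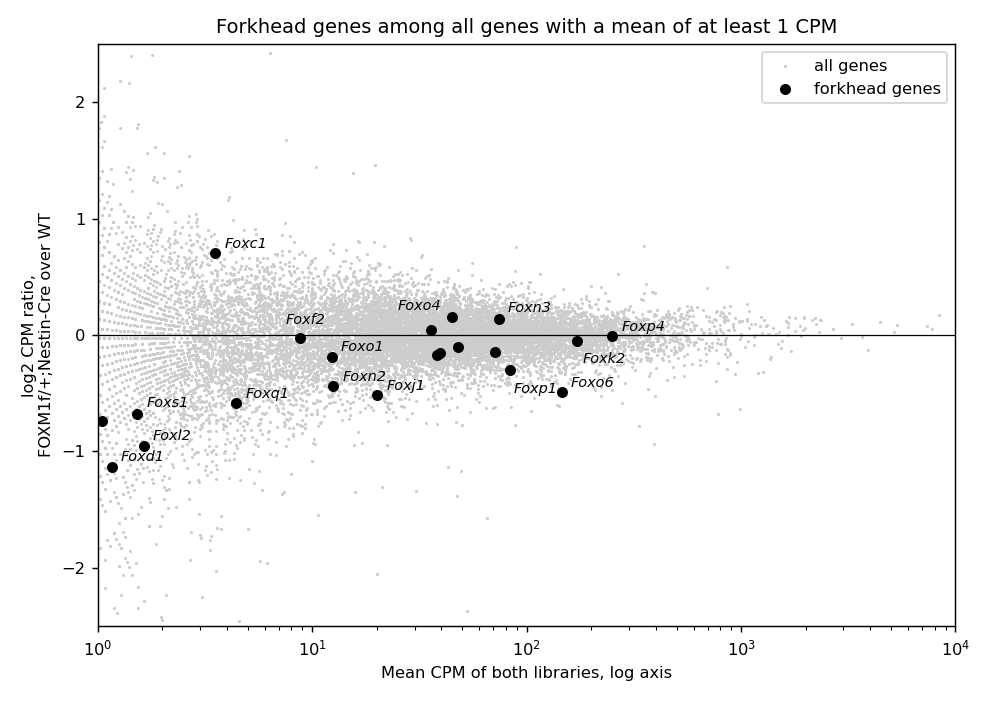
Log2 CPM ratio against mean CPM for all genes that average 1 CPM or more (grey) and 21 forkhead genes among them (black). The axis ends at 2.5 in each direction, so the most extreme genes and those with 0 reads are not drawn. Forkhead genes far from 0 lie at the left, and most at the right lie slightly below 0.

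Per length of exon, Foxo6, Foxp4 and Foxk2 were at high levels in the WT library. Their levels in RPKM, the CPM divided by kilobases of exon, were 65.2 (62.9 to 67.6), 51.0 (49.5 to 52.6) and 33.1 (32.0 to 34.3). In the transgenic library Foxo6, at 46.5 RPKM (44.6 to 48.5), stood below Foxp4 at 50.7 (49.2 to 52.2). Foxo4 followed in both, at 12.2 (WT) and 13.6 RPKM (transgenic). Below it, Foxj2, Foxj3, Foxp1, Foxk1 and Foxn3 lay between 6.13 and 7.54 RPKM in the WT library, and each had an interval that overlapped the next. Foxj1 stood just above this group in the WT library, at 9.02 RPKM, and inside it in the transgenic library, at 6.30. Of the 28 members, 16 had at least 1 RPKM in both libraries. Exon length here is the union of all annotated exons. With the longest transcript instead, Foxj3 moved from 6.80 to 15.6 and Foxp2 from 2.55 to 6.16 RPKM in the WT library. Foxp1 moved from 6.72 to 12.9 and Foxn3 from 6.13 to 9.15. Foxj1, unchanged at 9.02, then stood below Foxj3, Foxp1 and Foxn3, and Foxj3 stood above Foxo4 at 13.4. The order below Foxk2 thus depends on the length used.

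**Figure D3:**
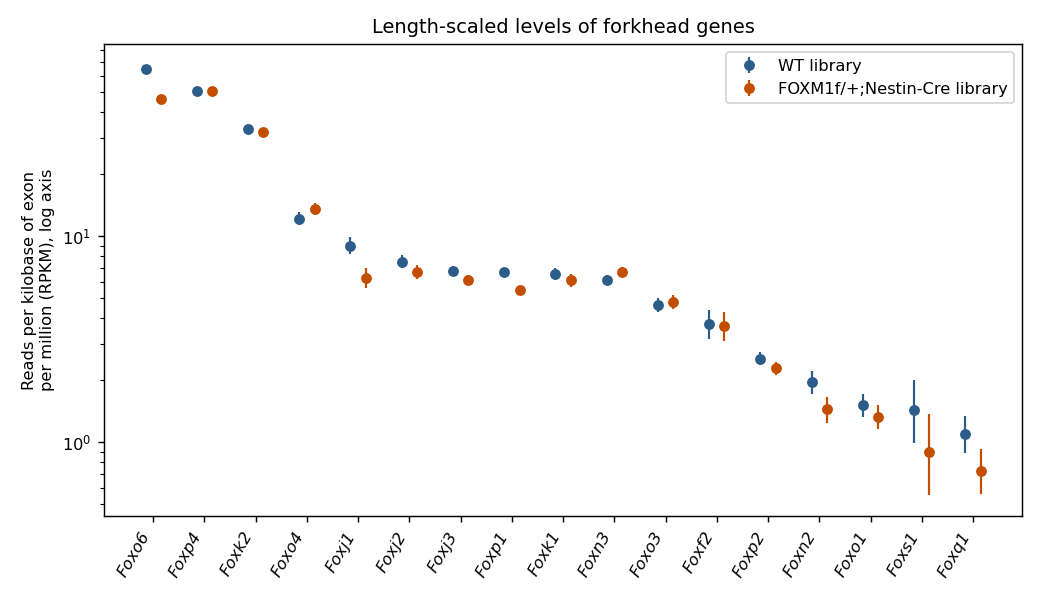
RPKM (log axis) for 17 forkhead genes, ordered by the WT library, with exact 95% Poisson intervals. Foxo6, Foxp4 and Foxk2 lie above 30 RPKM in both libraries, and Foxo6 shows the widest gap among them.

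The FoxP genes differed among themselves. FoxP proteins are repressors that form dimers through a leucine zipper, and Foxp1 and Foxp2 mark striatal and deep cortical neurons. Foxp1 (ENSMUSG00000030067, chromosome 6, 98925338 to 99522721) had 1343 reads in the transgenic and 1621 in the WT library, 75.2 against 92.4 CPM. Its ratio was 0.814 (0.757 to 0.876). Foxp2 (ENSMUSG00000029563, chromosome 6, 14901349 to 15441977), known for its role in speech and vocal circuits, had 668 against 731 reads, a ratio of 0.898 (0.807 to 0.999). Foxp4 (ENSMUSG00000023991, chromosome 17, 47867133 to 47924645), which acts in neuroepithelial progenitors, had 4462 against 4412 reads, 249.8 against 251 CPM. Its ratio was 0.994 (0.953 to 1.04). Thus Foxp1 was lower, Foxp4 lay near 1 with a narrow interval, and the upper bound of Foxp2 lay so near 1 that its interval spanned 1 with edgeR's TMM or RLE scaling factors.

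Ratios between paralogs do not depend on how the libraries are scaled. For every Foxp4 read there were 0.301 Foxp1 reads in the transgenic and 0.367 in the WT library, a quotient of 0.819 (0.753 to 0.891). For Foxp2 against Foxp4 the quotient was 0.904 (0.806 to 1.01), and for Foxp1 against Foxp2 0.907 (0.797 to 1.03). Both intervals include 1, and the former allows a quotient as low as 0.806. Across 17 such pairs within the family, 10 quotients had intervals that excluded 1, with no adjustment for the number of pairs. The pairs were a chosen list in which genes such as Foxo6, Foxj1 and Foxc1 recur, so the 10 are not separate results. The share over pairs of other genes was not computed. The transgenic library thus held fewer Foxp1 reads for each Foxp4 read, while the place of Foxp2 between them was not resolved at this depth. Foxp3, the factor of regulatory T cells, had 4 against 7 reads, and of the T cell list Cd4 had 1 against 2. Ikzf4, the 1 member of that list that reached 1 CPM, had 498 against 473. The other 4 genes of the list (Cd3e, Cd3g, Il2ra and Ctla4) were not among the genes measured. The level of Ikzf4 is therefore not read as T cell content.

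Lists of neurons that use FoxP factors were lower or mixed. Of 14 genes of striatal projection neurons, 7 had intervals below 1 and none above, with a median log2 ratio of -0.15. The shares among all genes were 19.2% below and 16.5% above. Deep genes are counted at small differences, such as Meis2 with 6695 against 6928 reads, a ratio of 0.949. The zinc finger gene Zfp503 had 805 against 915 reads and the retinoic acid receptor Rarb 28 against 66. Of 8 upper-layer genes, 7 had intervals below 1 and none above, with a median of -0.28. Layer 6 genes were mixed: of 7, 3 intervals lay below 1 and 1 above, with a median of -0.10. Among them Syt6, a synaptotagmin, had 550 against 724 reads and Sox5, which keeps deep-layer neurons in order, 2967 against 2528. Of 9 co-repressors and partners of FoxP proteins, 3 had intervals above 1 and 1 below, with a median of 0.02. The co-repressor Ctbp2 was at 1073 against 804 reads and the deacetylase Hdac1 at 1775 against 1435. Of the known FoxP2 targets, 4 reached 1 CPM: the adhesion protein Cntnap2 had 2409 against 2186 reads, with its interval above 1, and 2 intervals lay below 1.

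**Figure D4:**
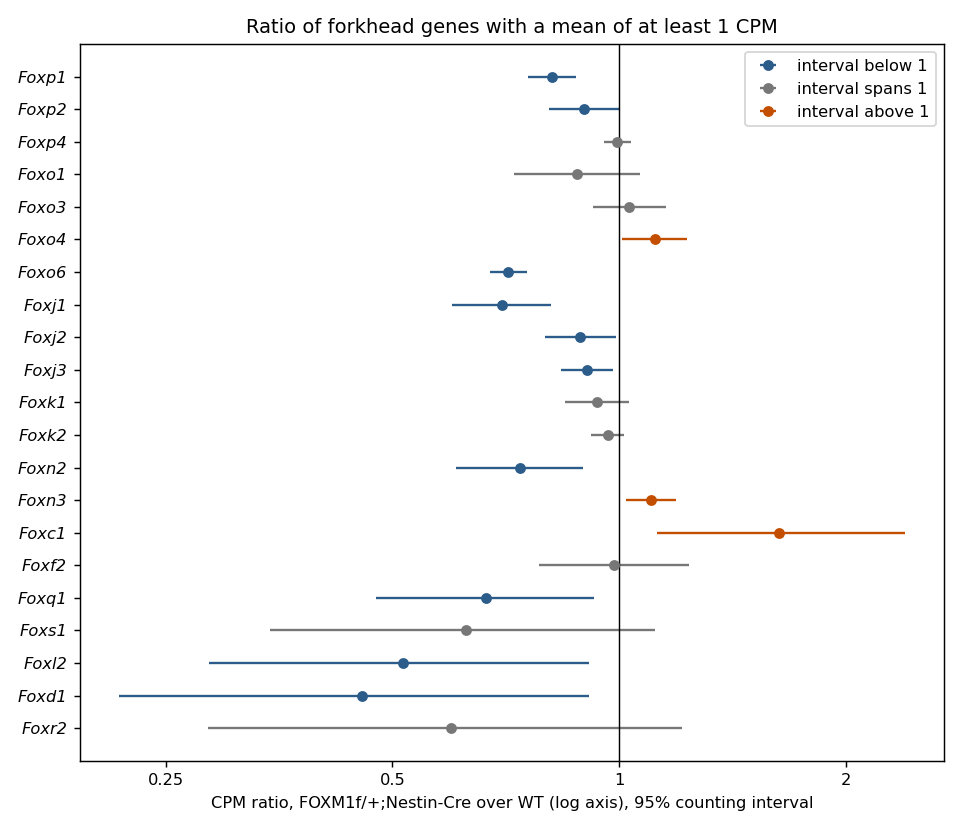
CPM ratio (log axis) of the transgenic over the WT library for 21 forkhead genes that average 1 CPM or more, grouped by subfamily, with exact 95% counting intervals. Intervals lie below 1 for 10 genes, span 1 for 8 and lie above 1 for Foxo4, Foxn3 and Foxc1.

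FoxO factors carry out the transcriptional response to low insulin and growth factor signalling: Akt phosphorylates them and keeps them out of the nucleus. Foxo6, the neuronal member, was lower in the transgenic library. ENSMUSG00000052135 is on chromosome 4 (120267079 to 120287349) and had 2171 against 2993 reads, 122 against 171 CPM. The ratio was 0.713 (0.674 to 0.753), or 1.40-fold lower (1.33 to 1.48). Foxo3 had 650 against 620 reads, a ratio of 1.03 (0.921 to 1.15), and Foxo1 206 against 230, a ratio of 0.880 (0.726 to 1.07). Foxo4 had 845 against 745 reads, a ratio of 1.11 (1.01 to 1.23). Foxo4 is on the X chromosome, and the libraries differed in Xist as given above.

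Set against each other, the same reads give the split within FoxO free of library scaling. These quotients add no second measurement. Foxo6 had 3.34 reads for each Foxo3 read in the transgenic and 4.83 in the WT library, a quotient of 0.692 (0.611 to 0.784). Against Foxo4 the quotient was 0.640 (0.570 to 0.717), and against Foxo1 it was 0.810 (0.663 to 0.990). Foxo1 and Foxo4 against Foxo3 gave 0.854 (0.683 to 1.07) and 1.08 (0.931 to 1.26), so neither differed from Foxo3 beyond counting error. Inputs of the pathway lay near the rest of the genes. Of 14 insulin receptor, kinase and 14-3-3 genes, 12 intervals spanned 1, and the median was -0.01. Sgk1, a kinase that also phosphorylates FoxO, had 225 against 286 reads, and Ywhae, a 14-3-3 protein, 27201 against 26247. Of 14 targets known from other tissues, 3 had intervals above 1 and 2 below, against 16.5% and 19.2% of all genes, with a median of 0.00. The arrestin-like Txnip had 1465 against 1153 reads and the ubiquitin ligase adaptor Klhl24 867 against 1134.

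Foxj1, the master regulator of motile cilia in ependyma and choroid plexus, was lower in the transgenic library. ENSMUSG00000034227 is on chromosome 11 (116330704 to 116335399) and had 295 reads (16.5 CPM) against 415 (23.7 CPM), a ratio of 0.698 (0.5995 to 0.813). Its relatives Foxj2 and Foxj3, which are widely expressed, had 639 against 707 and 1207 against 1309 reads. Their ratios were 0.888 (0.797 to 0.990) and 0.906 (0.837 to 0.980). With edgeR's TMM or RLE scaling factors the interval of Foxj2 spanned 1. Foxj1 was lower also relative to these paralogs, by a quotient of 0.771 (0.649 to 0.915) against Foxj3 and 0.786 (0.652 to 0.949) against Foxj2.

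Many genes of the motile cilium were lower, and most of these had few reads. Of 38 axoneme genes listed, 35 were measured and 21 reached a mean of 1 CPM. Of these 21, 12 had intervals below 1, 1 above and 8 spanned 1, and 11 were at least 2-fold lower. Their median log2 ratio was -1.12. That value depends on the expression minimum. The mean of 1 CPM let in genes such as Cfap126 (0.336 CPM transgenic, 3.88 WT) by their WT level alone. Without a minimum, the 35 measured genes had a median of -1.24. The 12 that reached 1 CPM in each library had a median of -0.17. The 4 at or above 10 CPM on average had a median of 0.12. Asking for 1 CPM in each library removes genes that are low in the transgenic library, such as Cfap126 and Ak7. The value of -0.17 is therefore raised by that rule, and it does not show what depth does to the median. The log2 ratio of Foxj1 was -0.52. Cfap126 had 6 against 68 reads and Ak7, an adenylate kinase of cilia, 11 against 58, whereas Mns1, a protein of sperm and nodal cilia, had 320 against 211. Most regulators that act before or with Foxj1 could not be told from a ratio of 1. Of 8 of them, 7 intervals spanned 1, and the median was -0.08. The exception was Gmnc, the geminin-like inducer of multiciliated cells, with 10 against 26 reads. Rfx3, a partner of Foxj1, had 964 against 991 reads, and Trp73 had 520 against 556. Deup1, of the organelle that multiplies centrioles, had 2 against 24 reads and a mean below 1 CPM.

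The choroid plexus list was lower as well. Of 12 plexus epithelium genes that reached 1 CPM, 11 had intervals below 1 and 1 spanned it. Some, such as Clic6 (0.504 CPM transgenic, 23.2 WT), reached the mean of 1 CPM by their WT level alone. The 7 that reached 1 CPM in each library had a median log2 ratio of -1.74, against -2.81 for the 12. The 15 measured genes summed to 35.5 CPM (transgenic) and 758 CPM (WT). Ttr, the plexus transthyretin, had 177 against 11255 reads and made up most of the WT sum. Otx2, the plexus transcription factor that is also used in other brain regions, had 211 against 223 reads. How far the plexus content of the libraries sets the level of Foxj1 was not tested.

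**Figure D5:**
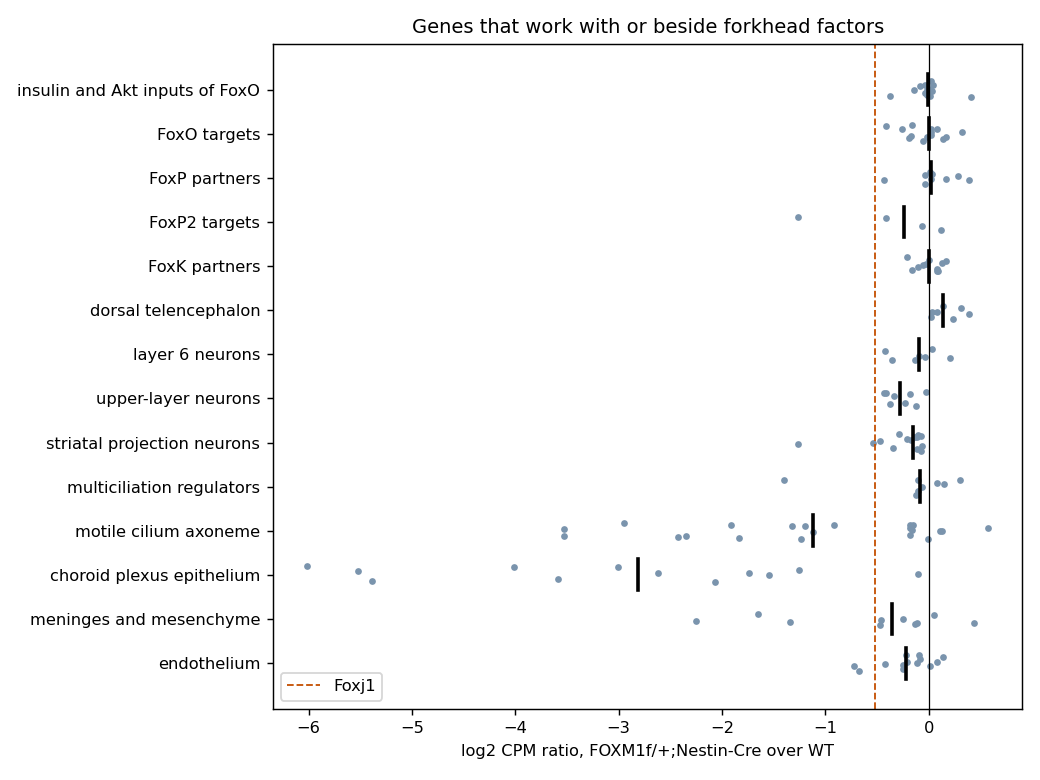
Log2 CPM ratio of genes that work with forkhead factors or mark cells that use them, among genes that average 1 CPM or more, with a black bar at each list's median and a dashed line at Foxj1. Slco1a4 in the endothelium list has 0 transgenic reads and is not drawn, though it counts in the median. The axoneme and plexus lists have medians of -1.12 and -2.81, and the FoxO input, FoxP and FoxK partner lists have medians of -0.01 to 0.02.

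FoxK and FoxN genes are broadly expressed. FoxK proteins recruit the Sin3 complex and shape autophagy and metabolism. Foxk2 had 3004 against 3058 reads, 168 against 174 CPM, a ratio of 0.965 (0.917 to 1.02), and Foxk1 had 828 against 871, a ratio of 0.934 (0.848 to 1.03). The quotient of these paralogs was 0.968 (0.868 to 1.08). Both intervals span 1 and reach down to 0.917 for Foxk2 and 0.848 for Foxk1. Of 11 FoxK partners, 2 had intervals above 1 and 3 below, with a median of 0.00. The FoxN pair went apart. Foxn3, a repressor tied to the DNA damage checkpoint, had 1387 against 1237 reads, a ratio of 1.10 (1.02 to 1.19). Foxn2 had 190 against 253, a ratio of 0.738 (0.608 to 0.894). The quotient of Foxn2 over Foxn3 was 0.670 (0.543 to 0.825). Foxn4, a factor of retinal and spinal interneurons, had 3 against 8 reads.

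Members of vessels and meninges had few reads and did not share a direction. Foxc1, needed for meninges and pericytes, had 78 reads (4.37 CPM, transgenic) against 47 (2.68 CPM, WT). Its ratio was 1.63 (1.12 to 2.39), the highest of the 22. Foxf2, a factor of brain pericytes, had 155 reads in each library, a ratio of 0.983 (0.781 to 1.24). Foxq1, known from brain endothelium, had 63 against 93 reads, a ratio of 0.666 (0.476 to 0.926). Foxs1, a pericyte gene, had 21 against 33, a ratio of 0.625 (0.344 to 1.11). Foxc2 and Foxf1, which serve vessels and mesenchyme elsewhere, had 3 against 3 and 4 against 8 reads. So Foxc1 was higher and the interval of Foxf2 spanned 1. Foxq1 was lower by its reads, which may include those of the opposite-strand gene, and the others were too shallow to place.

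Markers of the same tissues were mixed, with more of them lower. Of 10 meningeal and mesenchymal genes, 5 had intervals below 1 and 1 above, with a median of -0.36 and a sum of 138 against 167 CPM over the 14 measured. The collagen Col1a2 had 74 against 185 reads, the matrix protein Ogn 19 against 89, and Rgs5 of pericytes 896 against 1049. Crabp2, a retinoic acid binding protein, had 135 against 98 and was the 1 above. Of 14 endothelial genes, 5 had intervals below 1 and none above, against 19.2% and 16.5% of all genes, with a median of -0.22. Foxc1 thus stood above 1 beside lists whose medians lay below 0. The part of vessel and meningeal content in these 6 genes was not tested.

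Foxq1, Foxf2 and Foxc1 lie in 1 cluster on chromosome 13. Foxq1 (ENSMUSG00000038415) spans 31556134 to 31560976, Foxf2 (ENSMUSG00000038402) 31625816 to 31631403 and Foxc1 (ENSMUSG00000050295) 31806633 to 31812476, all on the plus strand, with 64839 and 175229 bases between them. The quotient of Foxc1 over its neighbour Foxf2 was 1.66 (1.06 to 2.60), and over Foxq1, with the same limit, it was 2.45 (1.47 to 4.09). Foxq1 over Foxf2 gave 0.677 (0.450 to 1.02). The next gene beyond Foxc1, Gmds, had 327 against 332 reads, a ratio of 0.968 (0.828 to 1.13). The pair Foxc1 and Foxf2 is shown with its promoters because the genes are neighbours with unlike ratios. Printed are the 250 bases before each annotated start, from RefSeq on GRCm38.p6, chr13:31806396-31806645 for Foxc1 and chr13:31625566-31625815 for Foxf2. Both are read on the plus strand, with CCAAT boxes in capitals (ATTGG on the other strand).
Foxc1: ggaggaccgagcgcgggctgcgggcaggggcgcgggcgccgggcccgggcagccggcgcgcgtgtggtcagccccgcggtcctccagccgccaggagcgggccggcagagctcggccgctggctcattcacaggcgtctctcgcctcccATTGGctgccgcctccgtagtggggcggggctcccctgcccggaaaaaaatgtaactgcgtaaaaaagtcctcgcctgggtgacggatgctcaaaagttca
Foxf2: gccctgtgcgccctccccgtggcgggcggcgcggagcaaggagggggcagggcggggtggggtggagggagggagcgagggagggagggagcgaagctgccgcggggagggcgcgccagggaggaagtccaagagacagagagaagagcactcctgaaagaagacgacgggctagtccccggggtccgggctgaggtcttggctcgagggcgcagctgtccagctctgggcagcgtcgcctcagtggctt
The Foxc1 stretch held 1 CCAAT box, 29 CpG and 70.8% G and C, and the Foxf2 stretch no CCAAT box, 21 CpG and 71.6%. RefSeq promoters of 300 bases were at hand for 15 members, 18 promoters in all. They had a median of 66.3% G and C and 27 CpG, against 52.7% and 7 over 32851 promoters. CCAAT, searched on both strands, was in 6 of the 18 and in 37.4% of all. The forkhead core TGTTTAC, searched likewise, was in none of the 18 and in 3.65% of all.

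The members of other regions had few reads. Foxd1, used in hypothalamus and in stroma, had 13 against 28 reads (0.728 against 1.60 CPM), a ratio of 0.456 (0.217 to 0.910). Foxb1, of the mammillary region, had 3 against 2 reads. Of the diencephalic list 10 genes reached 1 CPM, 4 with intervals above 1 and none below. In it Lhx9 had 486 against 281 reads and Nkx2-1, which is also used in the ventral telencephalon, 1390 against 1219. Foxl2, the ovarian factor, had 20 against 38 reads, a ratio of 0.517 (0.285 to 0.911), and shares 12 exonic bases with its antisense gene Foxl2os (5 against 7 reads). Foxr2, on the X chromosome, had 14 against 23 reads, a ratio of 0.598 (0.285 to 1.21). Foxh1, a partner of Smads in Nodal signalling, had 2 reads in each library. The 6 members under 1 CPM had 2 to 8 reads in each library, which is near the floor of 3 counts (0.168 and 0.171 CPM), and no ratio is read from them. GENCODE M21 names 15 more forkhead genes (Foxa1, Foxa2, Foxa3, Foxb2, Foxd2, Foxd3, Foxd4, Foxe1, Foxe3, Foxi1, Foxi2, Foxi3, Foxl1, Foxn1 and Foxr1). They were not analysed here. Each gene of the table has at least 2 reads in all.

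By share of forkhead reads, the groups differed slightly between the libraries (intervals are exact Clopper-Pearson, with the transgenic share first). FoxP took 25.5% (24.94 to 26.01) and 24.3% (23.8 to 24.86), FoxO 15.2% (14.8 to 15.7) and 16.5% (16.1 to 16.9), and FoxK 15.1% (14.6 to 15.5) and 14.1% (13.7 to 14.5). FoxJ and FoxN followed with 8.42% and 6.21% in the transgenic library and 8.74% and 5.39% in the WT library. The share of FoxO was thus slightly lower in the transgenic library and those of FoxP, FoxK and FoxN slightly higher, with intervals that do not overlap. Those of FoxJ overlap. These shares are of a smaller forkhead total in the transgenic library: of all reads, FoxP took 0.0363% against 0.0386% and FoxK 0.0215% against 0.0224%, lower in both cases. The share of a group does not describe each of its members. Within FoxO, Foxo6 was lower and Foxo4 higher, and within FoxN, Foxn2 was lower and Foxn3 higher.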

How the data were processed

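Total RNA of E15 mouse brain was sequenced. The submitters' processing notes name HTSeq 0.6.0, TopHat2 2.0.12, Bowtie2 2.2.3 and the build mm9, whereas the positions in the table match GRCm38 for 26 of 28 members (GENCODE M21). Per the file headers, raw read counts are given once for each genotype. The second deposited pair of columns is CPM, with 0.5 reads put in by the authors where none was counted. The authors' fold (a ratio of CPM) and its log2 value, with p-values from a test not given in the sources used here, are in the same table.

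Column names give the genotype only, and 0 further columns of values were left unmapped. Where counts per sample were found, a test with edgeR had been planned. With 1 column for each genotype none was run. Ratios have exact conditional Clopper-Pearson 95% intervals of 2 Poisson rates. Quotients of paralogs have exact conditional odds ratio intervals. Such intervals and the floor of 3 counts cover counting error only, and PCR copies cannot be removed without molecular identifiers. Exon lengths and coding sequences are from GENCODE M21, promoters from RefSeq. Members with at least 20 reads in both libraries together were to be named with their values, and the 6 others are named too. From each of 23 companion lists, up to 4 genes with an interval on 1 side of 1 could be named, or 2 by level. Further list genes, such as Rfx3, Otx2 and Deup1, were chosen after their values were seen. Some results, 1 member's among them, are not reported here. The members and lists were chosen with earlier results of these data known.

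Python 3.11.15, NumPy 2.4.6, pandas 2.3.3, SciPy 1.17.1, Biopython 1.88, Matplotlib 3.10.9, R 4.3.3 and edgeR 4.0.16 (scaling factors only) were used. The interval procedure was run on simulated Poisson counts, which have no spread between animals. That run checks the calculation only, not how well the intervals suit these libraries. Alternatives were TMM and RLE scaling, other expression minimums, other call rules and other exon lengths.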

Additional observations from a re-analysis of the deposited data

How the results depend on the processing

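No paired analysis was possible because there is 1 column for each genotype, and no library could be left out. TMM and RLE scaling moved log2 ratios by 0.02 and 0.03, and 9 members in place of 11 then had intervals below 1, without Foxj2 and Foxp2. The count above 1 was 3 in each. Among all genes the balance turned, from 2801 below and 2398 above 1 to 2489 and 2738 with TMM and 2339 and 2961 with RLE. These scalings of the interval count were chosen after seeing the data. The count of members at least 2-fold lower was 1, and it was 3 without an expression minimum, 0 with at least 1 CPM in both libraries, 0 with a mean of at least 10 CPM, 5 at 1.5-fold and 11 by the counting interval. The count at least 2-fold higher was 0, 1 at 1.5-fold and 3 by the interval. The members' median log2 ratio ranged from -0.18 to -0.15 over the alternatives, at -0.17 without Foxj1. The axoneme median of -1.12 became -1.24 over all 35 measured genes and -0.17 over the 12 genes that reached 1 CPM in each library. The rule of 1 CPM in each library removes genes because they are low in the transgenic library. With a mean of at least 10 CPM (4 genes) the axoneme median changed sign to 0.12. Per kilobase, the shares in the transgenic and the WT library were 20.004% and 18.1% for FoxP, 22.6% and 24.995% for FoxO, and 13.02% and 11.9% for FoxK. Depth limits the members under 5 CPM, where intervals reach 1.5-fold or more.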

Other observations

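Lists of cells that use few of the forkhead factors described above gave further values. Of 10 microglial genes that reached 1 CPM, 4 had intervals below 1 and none above, with a median log2 ratio of -0.25, and the purinergic receptor P2ry12 had 46 against 91 reads. Of 6 genes of oligodendrocyte precursors, 4 intervals lay below 1 and none above, with a median of -0.71. Among them Pdgfra, the receptor that drives these cells, had 87 against 195 reads. Erythroid genes went the other way: of 10, 6 intervals lay above 1 and none below, with a median of 0.57. The embryonic globin Hbb-y had 3194 against 499 reads and Hba-x 400 against 150. The other 4 intervals spanned 1, among them those of Hbb-bt (1260 against 1244 reads) and Alas2 (257 against 275). The list is therefore not read as erythroid content. Of 6 genes of floor plate and ventral midbrain, 1 interval lay above 1 (Shh, 73 against 46 reads) and 1 below (Lmx1a, 31 against 73 reads), with a median of -0.08.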
